A study of Mus musculus with 8 samples.

Results

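Immunoglobulin heavy, kappa and lambda chain segments and the J chain were followed in sorted mouse CD4 T cells. The members were all non-control array probes whose gene name begins with Igh, Igk, Igl or Igj and denotes a segment, a constant region or the J chain. The rule took 45 probes under 20 gene names, of 41174 probes under 27962 names, and the 1 matching probe of the helicase gene Ighmbp2 was left out. The rule reads gene names and no measured value, although it was set with earlier results of these data known. Of the 45 probes, 21 lie in heavy chain sequence, 14 in kappa, 8 in lambda and 2 in the J chain.

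The arrays were 1-colour Agilent mouse arrays, 8 in all, with 2 for each of 4 groups. The labels call them naive, CD44lo, CD44hi and Treg, the last short for regulatory T cell. All cells were sorted CD4 T cells, from males of the C57BL/6 strain at 15 weeks of age, with spleen and lymph nodes pooled. The series title names Ox40-cre/ROSA-YFP animals, a reporter in which a Cre recombinase expressed from the Ox40 gene turns on a yellow fluorescent protein for good, so that cells remain marked once they have expressed Ox40. That genotype is the only one the title gives, and the labels do not state the sort markers or whether the cells of a group carried the reporter protein. They number the samples of a group 1 and 2 and do not state whether these came from separate animals, so a p-value here reflects only how far these samples lie apart, and that may be technical.

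Immunoglobulins are the antigen receptors of B cells and, once secreted, antibodies. A heavy chain gene is assembled from V, D and J segments in front of the mu constant region, and class switching later joins the same variable region to a gamma, epsilon or alpha constant region. Light chains join a V to a J segment of the kappa or lambda locus, and the J chain, which despite its name is not a J segment, links secreted IgM and IgA into polymers. Plasma cells hold these transcripts in very large amounts, while T cells rearrange T cell receptor genes instead and are known to transcribe the mu region without a complete antibody gene.

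The probe sequences that carry the results are shown because the array names do not say where in an antibody transcript a probe lies. Each is written 5′ to 3′ as the array holds it, with its place in mouse build mm7 per the file headers. Capitals mark TATTACTG, letters that encode the conserved tyrosines and cysteine near the end of a V segment, and the J motif of a light chain, which is TTCGG, 4 bases of any kind, GG, 1 base of any kind and AC. Of the probes named Igh-VJ558, a name for a family of heavy chain V segments, 3 lie not among V segments but at the alpha end of the locus (chr12:110781031-110781090, chr12:110781169-110781228 and chr12:110781289-110781348, minus strand), within 318 bases and 4940 bases from a probe for the I alpha exon. In RefSeq's GRCm38.p6 gene order Igha is likewise the last of the constant genes, so these probes are called alpha constant here.
A_51_P509679: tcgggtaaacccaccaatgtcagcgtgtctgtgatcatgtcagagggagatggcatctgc
A_51_P187645: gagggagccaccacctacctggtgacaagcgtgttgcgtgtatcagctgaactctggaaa
A_51_P180159: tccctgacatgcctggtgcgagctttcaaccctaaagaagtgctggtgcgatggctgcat

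Set beside them are the mu probe (Igh-6, chr12:110942769-110942828, minus strand) and a gamma probe on an unplaced stretch of chromosome 12 (Ighg, chr12_random:5421654-5421713, plus strand). A probe called gamma 2a (Igh-1a, chr12_random:5440237-5440296, plus strand) is shown too, since these constant regions differed in their pattern over the arrays. The term gamma 2a follows the name Igh-1a only. RefSeq's gene order lists Ighg2c and no gamma 2a gene, and whether the probe measures gamma 2a or gamma 2c was not tested.
A_51_P485421: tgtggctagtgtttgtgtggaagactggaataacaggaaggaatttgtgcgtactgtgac
A_52_P74106: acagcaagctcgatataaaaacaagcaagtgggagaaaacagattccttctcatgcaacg
A_51_P311235: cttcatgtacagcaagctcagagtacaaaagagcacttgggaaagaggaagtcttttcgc

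Of the variable region probes, 3 are shown as examples: a heavy chain probe of Igh-VJ558 (chr12:112729499-112729558, minus strand), a kappa probe of Igk-V1 (chr6:68247287-68247346, plus strand) and a lambda probe of Igl-V1 across the V-J joint, whose ends the array annotation places 21815 bases apart (chr16:18612973-18634787, minus strand). The heavy chain probe holds letters beyond TATTACTG, as several V probes not shown do, and the kappa and lambda probes hold the J motif.
A_52_P139027: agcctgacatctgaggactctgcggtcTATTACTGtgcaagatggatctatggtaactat
A_52_P957659: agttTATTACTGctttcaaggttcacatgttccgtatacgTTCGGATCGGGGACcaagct
A_52_P383114: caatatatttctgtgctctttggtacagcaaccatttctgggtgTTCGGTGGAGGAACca

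TATTACTG stood in 9 of the 45 members and, on either strand, in 142 of all 41174 probes of 60 bases (0.345%). The J motif, searched on both strands too, stood in 2 members and in 8 of all probes (0.0194%). Names follow the cDNA from which a probe was designed and not its place: a probe named Igh-6 (A_52_P311042) lies among the heavy chain V segments. Of the members, 11 share a run of 20 or more bases or overlap on the genome with another member, so a value of a single segment is uncertain where related segments could bind the same probe.

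Signals are given as log2 of the background-subtracted signal relative to the 75th percentile of its array, so that 0 is that percentile and each unit is a doubling. Levels of different probes are not compared, because probes differ in how well they bind. The percentile itself lay between 639 and 1337 signal units, lowest on naive array 2, between 59.2% and 68.8% of probes were well above background on each array, and no member was saturated on any array. All 12 CD4 T cell markers examined were above background on all 8 arrays, and Foxp3, the defining factor of regulatory T cells, stood at 2.77 and 2.68 on the Treg arrays, 0.35 and 0.84 on the CD44lo arrays, -0.24 and -0.1 on the CD44hi arrays, and -5.41 and -4.68 on the naive arrays. It was thus highest in Treg, and CD44lo and CD44hi lay far above naive as well. In bulk samples such as these, more cells of a type and more RNA per cell cannot be told apart.

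The number of members well above background was higher in CD44hi and Treg than in naive. It was 19 on each naive array, 25 and 29 on the CD44lo arrays, 43 on each CD44hi array, and 45 and 39 on the Treg arrays. All 45 were above background on at least 1 array, 16 were above background on all 8 arrays, and 9 were above background on all 4 CD44hi and Treg arrays and on none of the 4 naive and CD44lo arrays. The median signal over the 45 members was -6.4 and -5.86 on the naive arrays, -5.6 and -5.8 on the CD44lo arrays, -1.21 and -2.08 on the CD44hi arrays, and -1.58 and -2.87 on the Treg arrays. The CD44hi and Treg arrays were therefore high and the naive and CD44lo arrays low. For 35 of the 45 members (77.8%) all 4 CD44hi and Treg arrays lay above all 4 naive and CD44lo arrays. The share of all tested probes was 8.49%. These shares are not like for like, since the 45 include untested probes and members above background only in CD44hi and Treg. Of the 16 members above background on all 8 arrays, 12 were split in this way. Among all probes above background on all 8 arrays, 6.79% were. The split of the groups was chosen after the values were seen.

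**Figure D1:**
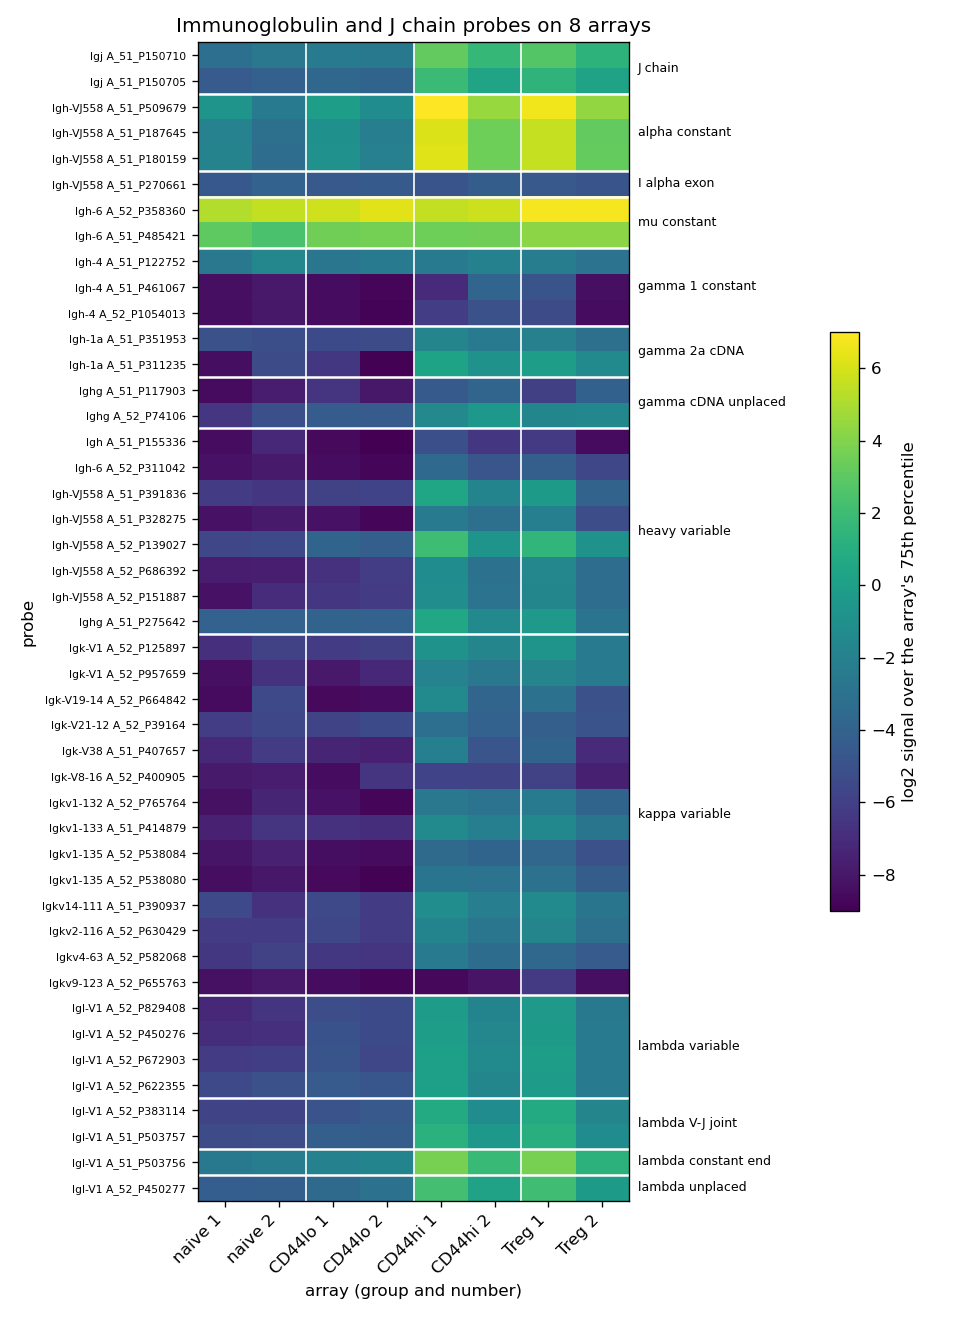
Log2 signal over the array's 75th percentile (colour) of the 45 immunoglobulin and J chain probes (rows, by class) on the 8 arrays (columns, 2 per group). The alpha constant, J chain, variable and lambda rows are brighter in the CD44hi and Treg columns than in the naive and CD44lo columns, while the I alpha and mu rows and the first gamma 1 row change little across the 8 columns.

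Groups were compared with limma over the 27162 probes that reached the scanner software's mark of well above background on both arrays of some group, with Benjamini-Hochberg adjustment over all of them and a threshold of 0.05. Of the members 42 entered the test and 3 did not (A_51_P155336, named Igh, A_51_P461067 of gamma 1 and A_52_P655763 of Igkv9-123). The filter matters here, since 17 of the 42 passed it only through CD44hi or Treg. For these it favoured a higher value than in naive, although not all of them were called. Counts over the 42 therefore describe the members and support nothing further. In CD44lo against naive 0 of 42 were called, where 4.69% of all tested probes were (4.12% higher and 0.567% lower), and 3 had an unadjusted p under 0.05. In CD44hi against naive 36 were called, all higher, where 25.5% of all tested probes were called, 12.6% higher and 12.9% lower. In Treg against naive 34 were called, all higher, where 19.2% were called, 10.6% higher and 8.52% lower.

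The 16 members above background on all 8 arrays had a level in every group. Of these, 13 were called higher in CD44hi than in naive and 12 in Treg than in naive, with none lower and median log2 differences of 4.82 and 4.44. Among the 23032 probes above background on all 8 arrays, 8.87% and 7.66% were called higher, and the medians were -0.16 and -0.18. The arrays lay on 2 slides, each with 1 array of every group. Within slide 1 the median difference over the 42 members was 5.11 for CD44hi against naive and 4.97 for Treg against naive, and within slide 2 it was 4.74 and 3.86. For CD44lo against naive it was 0.21 and 0.61. With another background correction (normexp), the differences of dim probes were smaller, the lowest value for the kappa probe A_52_P957659 in CD44hi being 1.73 in place of 5.23, so fitted sizes of dim probes depend on that step and lower bounds are given where naive was below background. Such a bound sets the brighter group's mean against, per array, the higher of the dimmest signal still well above background and the probe's own. It holds for the main background subtraction only and is no bound over the alternatives. There the lowest log2 difference in CD44hi was 2.93 for A_51_P391836, 2.88 for A_52_P450276 and -0.05 for A_52_P1054013.

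**Figure D2:**
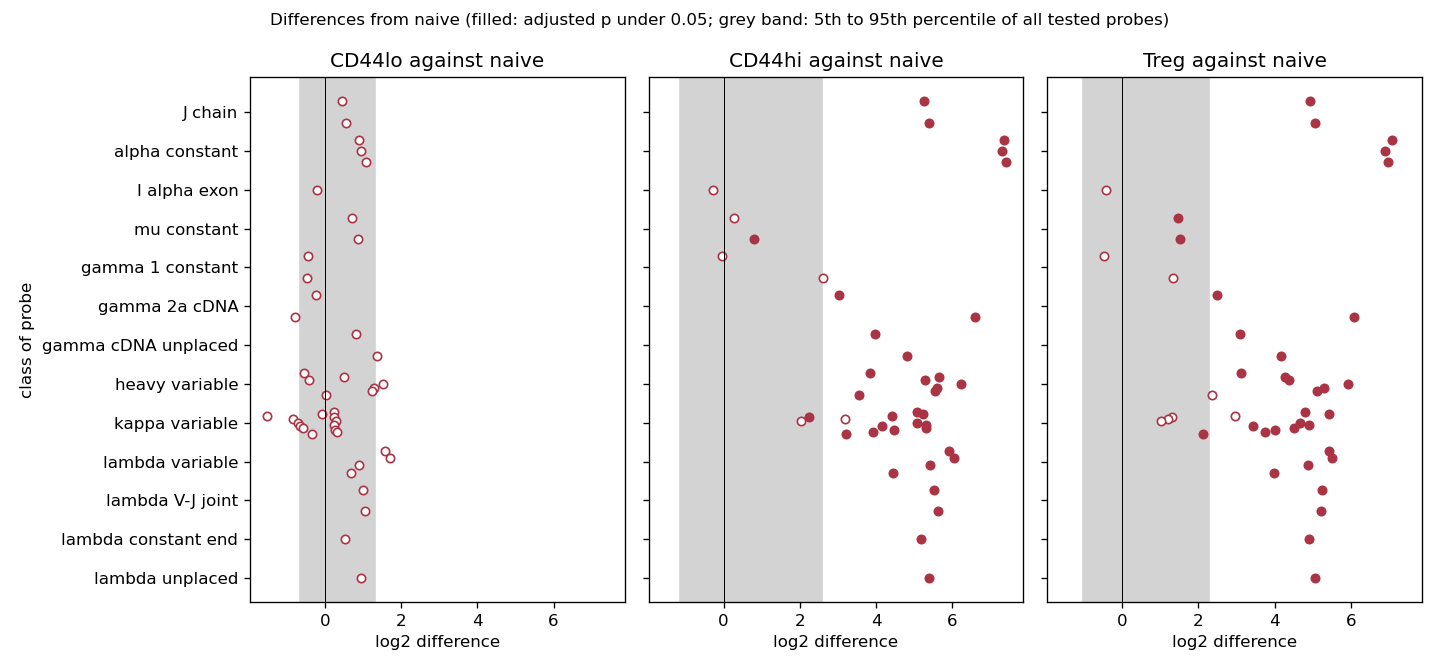
Log2 difference from naive (x axis) of each tested immunoglobulin and J chain probe, by class (y axis), in CD44lo, CD44hi and Treg; filled points have a limma adjusted p under 0.05 and the grey band spans the 5th to 95th percentile of all tested probes. In CD44lo no point is filled, and in CD44hi and Treg the alpha constant probes lie farthest to the right, between 6.90 and 7.42, with I alpha near 0.

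The J chain, which joins IgM and IgA units and is made by antibody-secreting cells, differed from naive in CD44hi and Treg by about as much as the median member. Its probe A_51_P150710 (Igj) read -3.18 and -2.59 on the naive arrays, -2.35 and -2.51 on the CD44lo arrays, 3.13 and 1.65 on the CD44hi arrays, and 2.72 and 1.35 on the Treg arrays. CD44hi and Treg were high on both arrays and did not overlap with naive or CD44lo, while CD44hi and Treg overlapped with each other. The log2 difference from naive was 5.27 ± 0.60 in CD44hi (SE, n = 2 arrays per group, 38.7-fold, limma adjusted p = 0.0013) and 4.92 ± 0.60 in Treg (30.4-fold, adjusted p = 0.00214), with 5.71 and 4.83 within the slides in CD44hi and 5.31 and 4.54 in Treg, and in CD44lo it was 0.45 ± 0.60 (adjusted p = 0.662). The other J chain probe, A_51_P150705, gave 5.38 ± 0.57 and 5.07 ± 0.57, so both probes gave differences within 1 SE of each other. Against CD44lo the difference of A_51_P150710 was 4.82 ± 0.60 in CD44hi (limma adjusted p = 0.00612) and 4.47 ± 0.60 in Treg (adjusted p = 0.0131).

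The alpha constant region, the heavy chain part that makes an antibody IgA, had the largest differences of any class of members. Probe A_51_P509679 read -0.75 and -2.33 on the naive arrays, -0.08 and -1.2 on the CD44lo arrays, 7.11 and 4.54 on the CD44hi arrays, and 6.65 and 4.41 on the Treg arrays. All 4 CD44hi and Treg arrays were far above all 4 others, and within every group array 1 was higher than array 2. The difference from naive was 7.36 ± 1.09 in CD44hi (SE, n = 2 arrays per group, 165-fold, limma adjusted p = 0.00411) and 7.07 ± 1.09 in Treg (134-fold, adjusted p = 0.00584). The other alpha probes gave 7.31 and 7.42 in CD44hi, and 6.90 and 6.97 in Treg. In CD44lo the 3 probes gave 0.90 to 1.09, none called. A_51_P509679 differed from naive by 9.44 within slide 1 and by 5.29 within slide 2 in CD44hi, and by 8.98 and 5.16 in Treg. Each slide sets a CD44hi or Treg array against the naive array of the other number. Between arrays of the same number, 1 and then 2, the difference was 7.86 and 6.87 in CD44hi, and 7.4 and 6.74 in Treg. Without naive array 2 the Treg difference of A_51_P187645 and A_51_P180159 missed the threshold, with adjusted p of 0.0518 and 0.053.

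The I alpha exon stands in front of the alpha constant region and is transcribed, without a variable region, when a B cell locus opens for switching to IgA. Its probe A_51_P270661 read -4.62 and -3.98 on the naive arrays, -4.52 and -4.49 on the CD44lo arrays, -4.87 and -4.26 on the CD44hi arrays, and -4.56 and -4.87 on the Treg arrays. The 4 groups overlapped, all 8 arrays were above background, and the difference from naive was -0.27 ± 0.29 in CD44hi (limma adjusted p = 0.53) and -0.42 ± 0.29 in Treg (adjusted p = 0.334). The rise of the alpha constant probes was thus not seen at the exon 4940 bases away.

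The mu constant region, the first used by a B cell and transcribed in T cells too, was high in all groups. Probe A_52_P358360 read 5.13 and 5.55 on the naive arrays, 5.82 and 6.27 on the CD44lo arrays, 5.5 and 5.75 on the CD44hi arrays, and 6.81 and 6.78 on the Treg arrays. Only the Treg arrays lay above all others, with a difference from naive of 1.46 ± 0.22 (SE, n = 2 arrays per group, limma adjusted p = 0.00584), and without Treg array 2 the adjusted p was 0.0513. The second mu probe, A_51_P485421, read 3.02 and 2.4 in naive, 3.5 and 3.65 in CD44lo, 3.49 and 3.51 in CD44hi, and 4.24 and 4.23 in Treg. It differed from naive by 1.52 ± 0.22 in Treg (limma adjusted p = 0.00451) and by 0.79 ± 0.22 in CD44hi (adjusted p = 0.0427). The CD44hi call was lost in 9 of 14 alternatives, among them each that left out a CD44lo, CD44hi or Treg array. A further mu probe that carries a transcript name and is no member (A_52_P571419) read between 5.12 and 5.68 on all 8 arrays and differed by 0.14 ± 0.22 in Treg (limma adjusted p = 0.675), so the probes of mu disagreed. Under every scaling tried the member probes kept their direction in Treg, and A_52_P358360 was the only member called between Treg and CD44hi, at 1.17 ± 0.22 (limma adjusted p = 0.0285), a call lost without any 1 of the CD44hi and Treg arrays.

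The gamma regions, which make IgG, did not move together. The gamma 1 probe A_51_P122752 read between -1.61 and -2.88 on all 8 arrays and differed from naive by -0.04 ± 0.37 in CD44hi and -0.47 ± 0.37 in Treg, neither called. The other gamma 1 probes were below background on all naive and CD44lo arrays: A_52_P1054013 read -6.11 and -5.06 on the CD44hi arrays and -5.26 and -8.44 on the Treg arrays, the last not well above background, and A_51_P461067 read -7.01 and -3.79, then -4.82 and -8.36, and was above background on 1 array of each. Under the main background subtraction A_52_P1054013 was at least 1.36-fold higher in CD44hi than in naive and was not called (limma adjusted p = 0.0904). Its lowest log2 difference over the alternatives was -0.05.

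The cDNA named Igh-1a, called gamma 2a here from that name alone, rose in both groups. Its probe A_51_P351953 read -5.02 and -5.15 in naive, -5.38 and -5.26 in CD44lo, -1.71 and -2.4 in CD44hi, and -2.06 and -3.11 in Treg, with no overlap between the first pair of groups and the second. It differed from naive by 3.03 ± 0.37 in CD44hi (limma adjusted p = 0.0019) and 2.50 ± 0.37 in Treg (adjusted p = 0.00512). The second, A_51_P311235, gave 6.60 ± 1.19 and 6.09 ± 1.19, with its naive arrays 3.06 apart at -8.38 and -5.33 and only naive array 2 above background. Its Treg call was lost without either Treg array. Of the Ighg cDNA on the unplaced stretch, A_52_P74106 read -6.46 and -5.08 in naive, -4.36 and -4.42 in CD44lo, -1.44 and -0.49 in CD44hi, and -1.66 and -1.53 in Treg. It differed from naive by 4.81 ± 0.48 in CD44hi (limma adjusted p = 0.00076) and 4.17 ± 0.48 in Treg (adjusted p = 0.00174). Its 1.38 ± 0.48 in CD44lo was not called (limma adjusted p = 0.214).

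**Figure D3:**
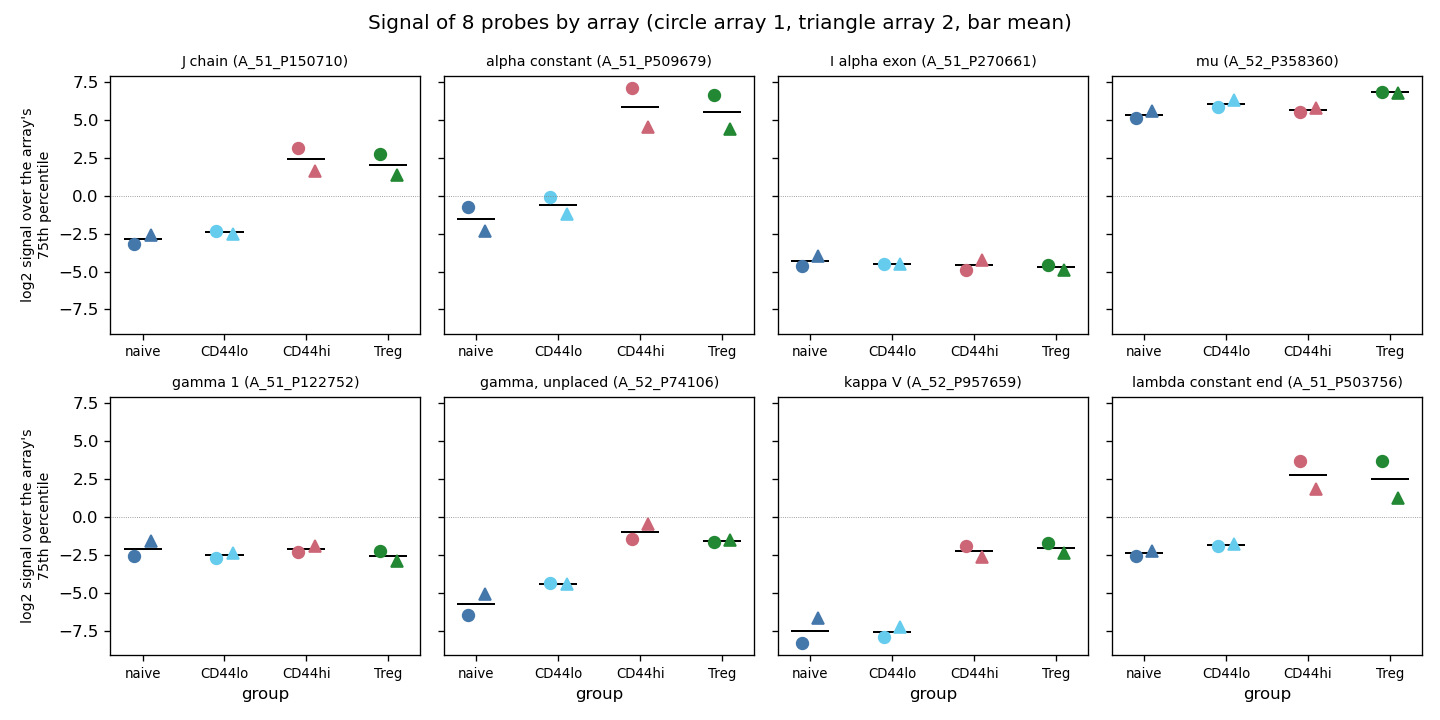
Log2 signal over the array's 75th percentile (y axis) of 8 probes in the 4 groups (x axis), with a circle for array 1, a triangle for array 2 and a bar for their mean. J chain, alpha constant, the unplaced gamma probe, kappa V and the lambda constant end are high in CD44hi and Treg, while I alpha and gamma 1 lie level and mu is highest in Treg.

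The variable segments give an antibody its binding site, and most heavy chain and kappa V probes were below background on the naive arrays. Of 8 probes placed among the heavy chain V segments 7 were tested, and all 7 were called higher in CD44hi and 6 in Treg, none lower. Of all tested probes, 12.6% and 10.6% were called higher. For a probe that passed only through CD44hi or Treg the filter favoured a higher value than in naive, so counts by class describe the members only. For the 5 of these 7 probes below background on both naive arrays only bounds under the main background subtraction can be given. These bounds ran from at least 3.65-fold to at least 40.3-fold in CD44hi and from at least 2.21-fold to at least 15.3-fold in Treg. The heavy chain probe shown above, A_52_P139027, read -5.59 and -5.49 in naive, -3.86 and -4.15 in CD44lo, 2.05 and -0.69 in CD44hi, and 1.55 and -0.77 in Treg. It differed by 6.22 ± 1.00 in CD44hi (limma adjusted p = 0.00583) and by 5.93 ± 1.00 in Treg (adjusted p = 0.00855), which became 0.0514 without naive array 2. A probe below background on both naive arrays, A_51_P328275, was at least 9.73-fold higher in CD44hi and at least 5.17-fold higher in Treg. Probe A_51_P391836 read -6.24 and -6.48 in naive, 0.4 and -1.8 in CD44hi, and -0.31 and -3.88 in Treg, and was at least 40.3-fold higher in CD44hi (adjusted p = 0.0151). That call was lost without naive array 2 or CD44hi array 1, and its Treg difference (4.26, adjusted p = 0.0482) lost its call in 10 of 14 alternatives. The Ighg probe A_51_P275642 was measured on all 8 arrays, from -3.93 to -4 on the naive and CD44lo arrays, 0.53 and -1.37 on the CD44hi arrays and -0.36 and -2.87 on the Treg arrays, and was called in CD44hi (3.55 ± 0.88, adjusted p = 0.0285) and not in Treg (2.36 ± 0.88, adjusted p = 0.11). The differences of A_52_P686392 and A_52_P151887 were at least 15.1-fold and 15.9-fold in CD44hi and at least 12.2-fold and 11.8-fold in Treg.

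Of 14 kappa V probes 13 were tested, and 11 were called higher in CD44hi and 9 in Treg, none lower, with the same limit from the filter. Of all tested probes, 12.6% and 10.6% were called higher. Among the 11 called in CD44hi, 8 were below background on both naive arrays, and their bounds ran from at least 5.20-fold to at least 27.4-fold in CD44hi and from at least 3.15-fold to at least 22.6-fold in Treg. The Igk-V1 probe that holds the J motif, A_52_P957659, read -8.32 and -6.66 in naive, -7.9 and -7.23 in CD44lo, -1.89 and -2.62 in CD44hi, and -1.75 and -2.36 in Treg. It was below background on all 4 naive and CD44lo arrays and above it on the other 4. Under the main background subtraction it was at least 13.7-fold higher in CD44hi (limma adjusted p = 0.00117) and at least 15.8-fold higher in Treg (adjusted p = 0.00123). Over the alternatives its log2 difference fell as low as 1.73 in CD44hi and 1.89 in Treg. Bounds differed within the Igkv1 family: Igkv1-133 (A_51_P414879) was at least 19.5-fold higher in CD44hi and at least 14.6-fold in Treg, Igkv1-132 (A_52_P765764) at least 9.75-fold and 7.34-fold, and the 2 probes of Igkv1-135 at least 8.94-fold and 5.13-fold (A_52_P538080) and 5.20-fold and 3.15-fold (A_52_P538084). Igk-V21-12 (A_52_P39164), the kappa member measured on all 8 arrays, read -6.08 and -5.56 in naive, -5.75 and -5.41 in CD44lo, -3.15 and -3.98 in CD44hi, and -4.13 and -4.88 in Treg. No CD44hi or Treg array overlapped with the others, and the difference was 2.25 ± 0.37 in CD44hi (adjusted p = 0.00663) and 1.31 ± 0.37 in Treg (adjusted p = 0.0544, not called). Igk-V8-16 (A_52_P400905) and Igk-V38 (A_51_P407657) were called in neither group. Igkv9-123 (A_52_P655763) was above background on Treg array 1 alone, at -6.3.

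All 8 lambda probes, each named Igl-V1, were called higher in both CD44hi and Treg than in naive, where 12.6% and 10.6% of all tested probes were. Without naive array 2 the Treg call was lost for 4 of the 8 (A_51_P503756, A_52_P450277, A_52_P383114 and A_52_P622355, limma adjusted p from 0.052 to 0.0622). The probe at the lambda constant end, A_51_P503756, read -2.55 and -2.26 in naive, -1.94 and -1.79 in CD44lo, 3.7 and 1.86 in CD44hi, and 3.7 and 1.27 in Treg. The CD44hi and Treg arrays were high and overlapped with each other only. Its difference from naive was 5.19 ± 0.85 in CD44hi (36.5-fold, limma adjusted p = 0.00639) and 4.89 ± 0.85 in Treg (29.7-fold, adjusted p = 0.00974). Within the slides it was 5.96 and 4.42 in CD44hi and 5.96 and 3.83 in Treg. The V-J joint probe A_52_P383114 read -5.72 and -5.73 in naive, -4.93 and -4.53 in CD44lo, 0.8 and -1.19 in CD44hi, and 0.79 and -1.74 in Treg, which gave 5.53 ± 0.90 and 5.25 ± 0.90. The lambda V probe A_52_P450276 was below background on both naive arrays and at least 36.4-fold higher in CD44hi and 24.8-fold in Treg. In CD44lo all 8 lambda probes were above naive in their mean, by 0.54 to 1.71, and none was called.

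CD44lo stood with naive for most members. In CD44hi against CD44lo 34 of the 42 tested members were called, all higher, where 7.92% of all tested probes were called, 5.14% higher and 2.78% lower. In Treg against CD44lo 26 were called, all higher, where 4.69% were called, 3.24% higher and 1.46% lower. Within the slides the medians were 5.17 and 3.66 for CD44hi and 5.04 and 2.89 for Treg. These comparisons rested more on single arrays: without CD44lo array 1 the counts were 13 and 2, and without CD44lo array 2 they were 12 and 5. Treg against CD44lo fell to 9 and 14 without Treg array 1 or 2 and to 16 without either naive array, and CD44hi against CD44lo fell to 22 without CD44hi array 1.

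CD44hi and Treg differed little from each other. Only the mu probe was called between them, where 7.25% of all tested probes were called, 3.7% higher and 3.55% lower in Treg, and 4 members had an unadjusted p under 0.05. The median difference over the members was -0.45, lower in Treg, and the J chain differed by -0.35 ± 0.60 and alpha constant (A_51_P509679) by -0.29 ± 1.09. Within slide 1 the median was -0.23 with 10 of 42 members higher in Treg, and within slide 2 it was -0.68 with 3 of 42 higher.

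In CD44hi and Treg the arrays of a group lay further apart for the members than for most other probes. In CD44hi the 42 members above background on both arrays were higher on array 1 by a median of 1.2, and 22 of them (52.4%) by more than 1, against a median of -0.05 and 0.713% of all tested probes measured on both arrays. In Treg the 39 such members were higher on array 1 by a median of 1.42, and 30 of them (76.9%) by more than 1, against 0.04 and 0.761%. The median gap was -0.2 in naive, against -0.18 for all tested probes, and 0.14 in CD44lo, against 0.01, and the 3 members over 1 in each were the alpha constant probes. Of the 39 members measured on all 4 arrays, 33 were higher on array 1 in both groups, 2 were lower on array 1 in both, and 4 went opposite ways.

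The gap was narrow in range within some classes and wide in others. It was 2.57 to 2.76 in CD44hi and 2.24 to 2.43 in Treg for alpha constant, 1.48 and 1.53 in CD44hi and 1.23 and 1.37 in Treg for the J chain, and within 0.25 for both mu probes in both groups. In heavy V it ran from 0.7 to 2.74 in CD44hi and from 1.42 to 3.57 in Treg, and in kappa V from -0.1 to 2.74 and from 0.62 to 2.03. The 2 probes lower on array 1 in both groups were those of the unplaced gamma cDNA, at -0.95 and -0.13 for A_52_P74106 and -0.72 and -1.91 for A_51_P117903. That class follows the name and place of the cDNA. The sequence of A_51_P117903 reads as a heavy chain V segment and not as a gamma constant region, and the heavy V range above leaves this probe out. Alpha constant was higher on array 1 in naive (1.19 to 1.58) and CD44lo (1.1 to 1.18) as well. The arrays numbered 1 of CD44hi and Treg lay on slide 1 and those of naive and CD44lo on slide 2, so for alpha constant the higher array had the number 1 in all 4 groups and not the same slide. Whether the number stands for an animal or a sort was not tested, and its part in the gap was not tested.

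**Figure D4:**
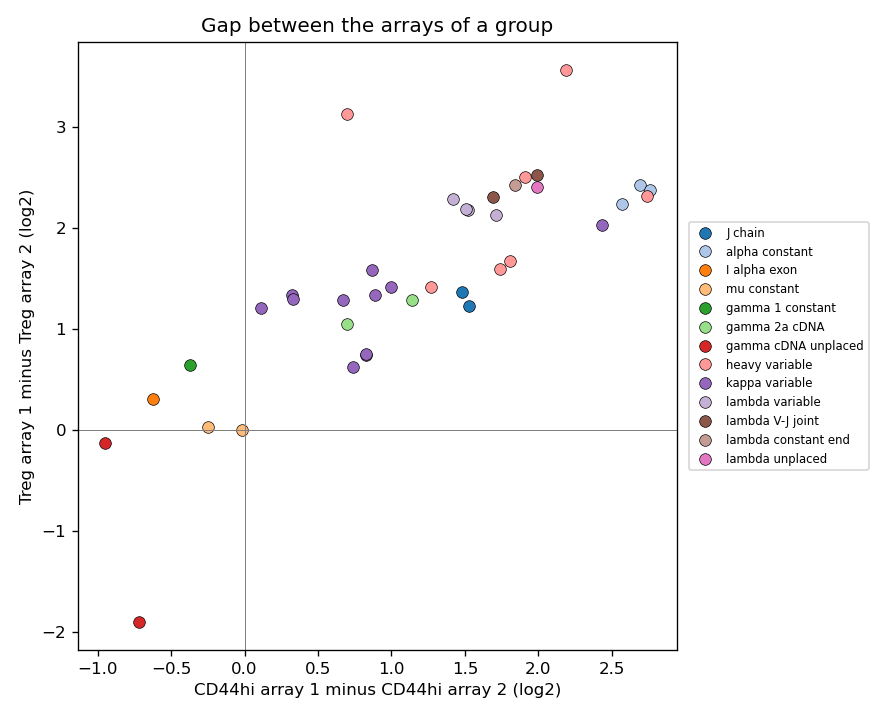
Log2 signal on array 1 minus array 2 in CD44hi (x axis) and in Treg (y axis) for the 39 members above background on all 4 arrays, coloured by class. Alpha constant, heavy V and lambda points lie at the upper right, both mu points near 0 and both points of the unplaced gamma cDNA at the lower left. Of that cDNA, A_51_P117903 holds heavy chain V sequence.

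Genes that build or switch immunoglobulin genes were followed in lists drawn up from textbook knowledge. Beside them stand 25.5% of all tested probes called in CD44hi, 19.2% in Treg and 4.69% in CD44lo. Of 13 tested genes of V(D)J recombination and the surrogate light chain, 1 was called higher and 1 lower in CD44hi, the same counts as in Treg, and 1 was lower in CD44lo. Dntt, which adds bases at segment joints, fell by 4.42 in CD44hi and by 3.51 in Treg on the log2 scale. Hmgb2, a chromatin protein that assists the recombinase, was 1.58 ± 0.20 higher in CD44hi. Rag2, a subunit of the recombinase, and Igll1, the surrogate light chain, were above background on 0 of 8 arrays.

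Of 13 class switch and somatic mutation genes, 2 were called higher and 3 lower in CD44hi, and 2 higher and 0 lower in Treg. The shares over all tested probes were 12.6% higher and 12.9% lower in CD44hi, and 10.6% and 8.52% in Treg. Exo1, a nuclease of mismatch repair, was 3.57 ± 0.35 higher in CD44hi and 3.39 ± 0.35 higher in Treg.

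Receptors that bind immunoglobulin moved separately from the chains. Of 11 tested, 2 were called higher and 1 lower in CD44lo, 4 higher and 3 lower in CD44hi, and 2 higher and 2 lower in Treg. Over all tested probes 4.12% were called higher and 0.567% lower in CD44lo, 12.6% and 12.9% in CD44hi, and 10.6% and 8.52% in Treg. Fcmr, a receptor for IgM, read -6.89 and -5.63 in naive, -1.67 and -0.52 in CD44lo, -2.59 and -2.43 in CD44hi, and -0.55 and -0.34 in Treg, so it was high in CD44lo, where the chains were not called. Fcgrt, the receptor that spares IgG from breakdown, fell by 0.78 in CD44hi and by 3.62 in Treg, and Fcgr3, a low-affinity IgG receptor, fell by 1.81 and by 3.06.

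Markers of plasma cells moved with the immunoglobulin probes in part. Over all tested probes 12.6% were called higher and 12.9% lower in CD44hi, 10.6% and 8.52% in Treg, and 4.12% and 0.567% in CD44lo. Of 17 tested plasma cell markers 11 were called higher and 1 lower in CD44hi, and 8 higher and 0 lower in Treg. In CD44lo 4 of these markers were called higher and 0 lower. Their medians in CD44hi, Treg and CD44lo were 1.32, 0.83 and 0.05. Their summed level ran from 45.1 to 62.3 times the 75th percentile in naive, 47.1 to 48.1 in CD44lo, 56.2 to 58.9 in CD44hi and 56.8 to 57.6 in Treg, and none of the 18 on the array was below background on all 8 arrays. Prdm1 and Irf4, factors of plasma cells that activated T cells also use, were higher in all 3 groups, by 1.29, 1.60 and 1.92 and by 1.89, 2.61 and 2.92 in CD44lo, CD44hi and Treg. Mzb1, a chaperone for immunoglobulin assembly, read -5.73 and -5.31 in naive, -5.73 and -5.69 in CD44lo, -2.03 and -3.14 in CD44hi, and -2.5 and -3.54 in Treg. It differed from naive by 2.93 ± 0.46 in CD44hi (limma adjusted p = 0.00503) and 2.50 ± 0.46 in Treg (adjusted p = 0.0115), and it was the only gene of this list measured on both arrays with array 1 above array 2 by more than 1, in CD44hi (1.11) and in Treg (1.04). Tnfrsf17, a survival receptor of plasma cells, was above background on CD44hi array 1 (-4.42) and Treg array 1 (-4.71) and on no other array. Sdc1, a surface marker of plasma cells, was 3.64 ± 0.64 higher in CD44hi, where its arrays differed by -0.07. Derl3, of the secretory apparatus of plasma cells, was 2.91 ± 0.29 higher in CD44hi, with arrays 0.02 apart. Between Treg array 1 and array 2 the gap was 0.87 for Sdc1 and -0.3 for Derl3. The part of such cells in the result was not tested.

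Markers of B cells did not move as a whole. Over all tested probes 12.6% were called higher and 12.9% lower in CD44hi, 10.6% and 8.52% in Treg, and 4.12% and 0.567% in CD44lo. Of 14 tested B cell markers, 5 were called higher and 1 lower in CD44hi, and 6 higher and 1 lower in Treg. In CD44lo 2 of these markers were called higher and 0 lower. Their medians in CD44hi, Treg and CD44lo were 0.6, -0.02 and -0.16. Their summed level was 8.06 and 10.5 times the 75th percentile in naive, 10.1 and 12.6 in CD44lo, 12.5 and 17.0 in CD44hi, and at most 11.1 in Treg, and Ebf1, Fcer2a and Fcrla were above background on no array. Cd79a, of the B cell receptor, lay near background, between -5.62 and -6.44 on the 8 arrays, and was not called. It was above background on 6 of the 8 arrays, with only 1 array each in CD44hi and Treg. Ms4a1, which encodes CD20, was at least 3.36-fold higher in CD44hi and at least 3.69-fold in Treg than in naive, and Blnk, an adaptor of B cell receptor signalling, was higher by 2.49 ± 0.40 and 2.07 ± 0.40. Cd79b and Cd22 were called higher in CD44lo as well, by 2.40 ± 0.34 and by at least 56.0-fold.

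**Figure D5:**
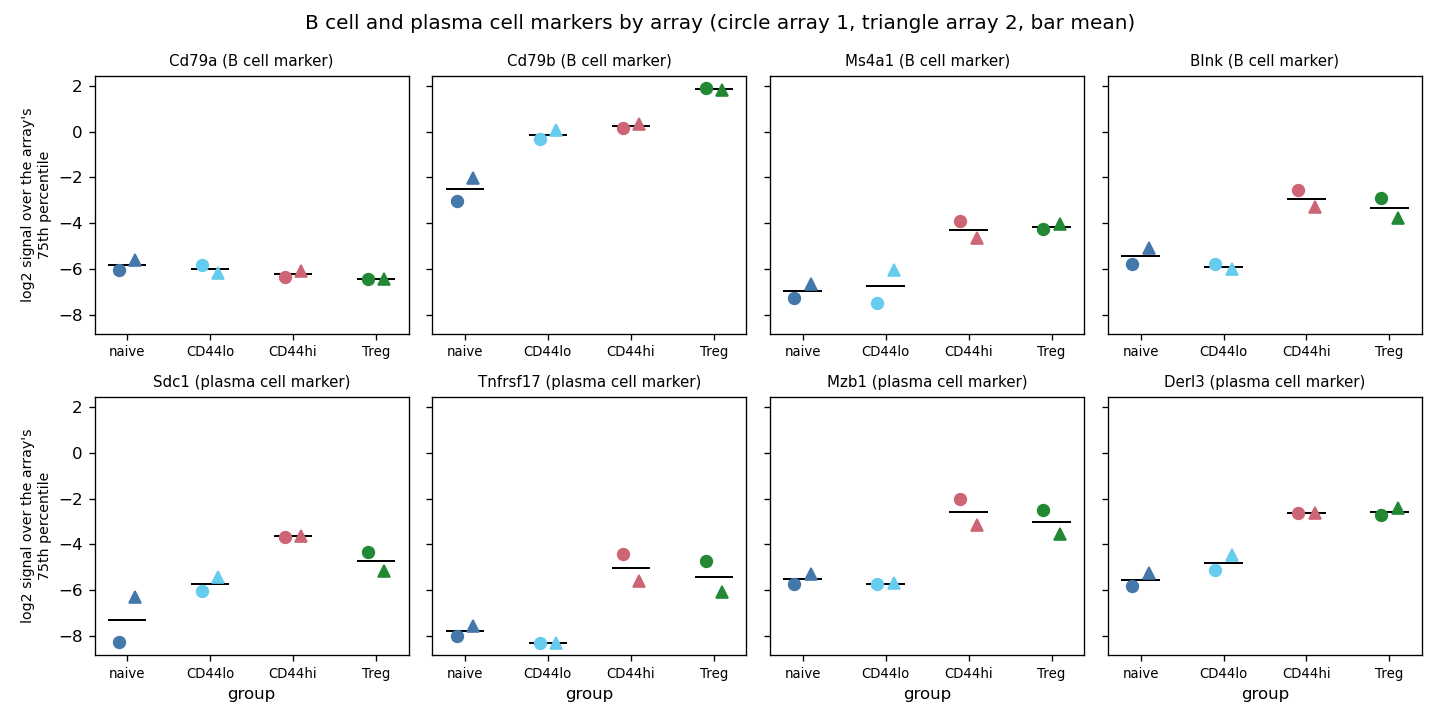
Log2 signal over the array's 75th percentile (y axis) of 4 B cell markers (top) and 4 plasma cell markers (bottom) in the 4 groups (x axis), with a circle for array 1, a triangle for array 2 and a bar for their mean. Cd79a lies level near background and Cd79b rises with CD44lo already. The plasma cell markers shown are 4 of 18 on the array. Mzb1 is higher in CD44hi and Treg, Sdc1 and Derl3 are higher in CD44hi, and Tnfrsf17 is above background only on array 1 of CD44hi and of Treg.

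Lists for other cells gave these counts for CD44hi against naive: 3 of 13 myeloid and dendritic cell markers higher and 1 lower, 7 higher and 3 lower of 11 for CD8 T and NK cells, and 0 of 6 erythroid and platelet markers in either direction by limma (0 at an unadjusted p under 0.05). Of the CD4 T cell markers 1 of 12 was called higher and 1 lower, and of 2 T cell receptor probes 1 was higher, Tcrg by 1.85 ± 0.32. In Treg the counts were 3 higher and 3 lower, 6 higher and 4 lower, 0 and 0, 0 higher and 3 lower, and 1 higher and 1 lower. The shares over all tested probes were 12.6% higher and 12.9% lower in CD44hi, and 10.6% and 8.52% in Treg.

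The 10 non-member probes whose pattern was most like the J chain probe A_51_P150710, by Pearson correlation over the 8 arrays, had r between 0.986 and 0.993. These arrays share their groups, so r is a description. By the array's own annotation 8 of the 10 are immunoglobulin cDNAs that carry an accession or a locus name, among them a kappa light chain (A_52_P238230, r = 0.993), 1 is Mzb1 (r = 0.990) and 1 is unknown (A_52_P490470, r = 0.987). Among the members, r with that probe was 0.981 to 0.985 for alpha constant, 0.993 for the lambda constant end, 0.928 for the unplaced gamma probe A_52_P74106, 0.426 and 0.619 for mu, 0.006 for gamma 1 (A_51_P122752) and -0.436 for I alpha. A search of the array's descriptions found a further 77 immunoglobulin probes outside the name rule, and 59 of them were tested. The search did not find all such probes, and the kappa light chain probe A_52_P238230 is among those it missed. Of the 59 tested, 50 were called higher in CD44hi than in naive, 38 in Treg and 1 in CD44lo, none lower, with medians of 3.92, 3.36 and -0.02. Of all tested probes, 12.6%, 10.6% and 4.12% were called higher. How many of the 59 passed the filter only through CD44hi or Treg is not given, so these counts too are a description and support nothing further.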

How the data were processed

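Signals came from 8 one-colour Agilent arrays of sorted CD4 T cells, 2 per group. Per the file headers, intensity values were extracted by the authors with Feature Extraction 9.5.1.1, which subtracted background, and probe places are on build mm7. RNA was purified on columns and amplified before labelling, per the labels' protocols. The authors also deposited a table of log2 values, for which the submitters' processing notes name limma; further steps are not given in the sources used here, and its medians were 6.86 to 6.88. Deposited annotation columns gave names and sequences.

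Here the processed intensity was averaged over a probe's spots without outlier flags, taken as log2 and reduced by the array's 75th percentile. Python 3.11.15, pandas 2.3.3 and R 4.3.3 with limma 3.58.1 (lmFit, contrasts and eBayes) were used, all 8 arrays in 1 fit with no block, and the fit was tested on simulated data. Exact permutation of 2 against 2 arrays cannot go below p = 0.333. The number of arrays limits precision.

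Members and gene lists (CD4 T, B, plasma, myeloid, CD8 and NK, erythroid cells, V(D)J recombination, class switch, immunoglobulin receptors, T cell receptor) were chosen with earlier results of these data known. Named were J chain and constant region probes, up to 8 called segment probes per comparison by size, the extremes of each class, the 10 probes most like the J chain, and up to 4 called genes per list and comparison; A_51_P328275, the Igkv1, Igk-V21-12, Igk-V38 and Igk-V8-16 probes and some markers lie outside this rule and were chosen after their values were seen. Of 20 names, 16 matched RefSeq. Same-numbered arrays deviated together with r of 0.0114 to 0.344, over only 2 numbers whose meaning the labels do not state, so the number was not used as a pairing. Alternatives were the background correction, scaling, authors' table, filter, slide or number as a block, 1 probe per name and each array left out. Results of some list genes are not reported here.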

Additional observations from a re-analysis of the deposited data

How the results depend on the processing

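No member was called lower in any alternative of the 5 comparisons with naive or CD44lo, while in Treg against CD44hi without Treg array 1 the 1 call was lower and not the mu probe. For CD44lo against naive, quantile normalization and the authors' value table each called 1 member. With only the brightest probe per gene name, 18 probes entered the test, and 14 were called in CD44hi and 13 in Treg against naive, and 13 in CD44hi and 11 in Treg against CD44lo. Without the filter on dim probes, 18 members were called in CD44hi and 9 in Treg against CD44lo, and 0 in Treg against CD44hi by limma. Leaving out each array gave 0 to 1 calls in CD44lo against naive, 32 to 35 in CD44hi and 24 to 35 in Treg against naive, 12 to 35 in CD44hi and 2 to 28 in Treg against CD44lo, and 0 to 2 in Treg against CD44hi. The count of 1 in CD44lo came without naive array 1. In Treg against CD44hi it was 0 without either CD44hi array and 2 without either naive array. With the replicate block the counts were 0, 34, 34, 34, 30 and 1 in the order CD44lo, CD44hi and Treg against naive, CD44hi and Treg against CD44lo, and Treg against CD44hi, and with the slide as a block 0, 36, 36, 35, 26 and 1. With normexp they were 30 and 26 for CD44hi and Treg against naive. The median of all tested probes moved from -0.11 to -0.23 in CD44hi and from -0.15 to -0.25 in Treg with normexp, and without the filter to -0.21 in CD44lo and -0.3 in Treg. The cause of these shifts was not tested. Probes near background have the least certain sizes.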
